A study of Mus musculus with 91 samples.

Results

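The comparison described here is between the epiblast (Epi) of *Dnmt1*-KO embryos and that of *Dnmt3a/3b*-DKO embryos at embryonic day (E) 7.5, across all mature miRNAs. Its members are the 4 *Dnmt1*-KO and the 4 *Dnmt3a/3b*-DKO E7.5 Epi libraries, 8 of the 91 libraries of the series. They were picked out by their labels, with earlier results of these data known. The libraries were made by Cas9-assisted small RNA sequencing (CAS-seq) from picogram amounts of total RNA, a method for very small inputs. Embryos came from B6D2F1 females (C57BL/6J mothers, DBA2 fathers) mated with Oct4-EGFP reporter males on a C57BL/6J background. In every group zygotes had been injected with mRNA of a cytosine base editor, which writes premature stop codons at sites given by guide RNAs. *Dnmt1*-KO zygotes also received a guide to *Dnmt1*, and *Dnmt3a/3b*-DKO zygotes received a guide to *Dnmt3a* and a guide to *Dnmt3b*. The other E7.5 Epi groups, used as a reference, were 3 control libraries (editor without a guide) and 3 *Dnmt*-null libraries (all of these guides). The embryos studied were the injected ones themselves, and the sources used here do not say whether a library is 1 embryo or a pool. *Dnmt* transcripts are not measured by small RNA counts, so the genotypes could not be checked in these libraries.

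DNMT1 copies DNA methylation onto the new strand after replication, and DNMT3A and DNMT3B write methylation de novo, which in the embryo happens largely around implantation. Imprinted genes are expressed from 1 parental chromosome. They depend on methylation that was set in a germ cell and that must be copied at every division afterwards. Several imprinted regions carry miRNAs. Those of the *Dlk1-Dio3* region on chromosome 12 are transcribed from the maternal chromosome along with the noncoding RNAs *Meg3*, *Rian* and *Mirg*. miR-483 lies in *Igf2*, and miR-296 and miR-298 lie in the *Gnas* region, both read from the paternal chromosome. The question of the comparison is thus how loss of maintenance and loss of de novo methylation differ in the miRNAs of the same tissue.

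The sequences of the miRNAs on which the results turn are shown first, 5′ to 3′, from RefSeq (GRCm38.p6), with the seed (bases 2 to 8, which pair with targets) in capitals. The first set is from the *Dlk1-Dio3* region: miR-540-3p at chr12:109586122-109586141, miR-127-3p at chr12:109592888-109592909 and miR-541-5p at chr12:109742422-109742446, all on the + strand. miR-127 lies opposite an exon of *Rtl1*, miR-541 lies in an intron of *Mirg*, and miR-540 overlaps no other annotated gene.
miR-540-3p: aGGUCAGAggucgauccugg
miR-127-3p: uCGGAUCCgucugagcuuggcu
miR-541-5p: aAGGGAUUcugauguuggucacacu
The second set holds the imprinted miRNAs of other regions, at chr7:142654932-142654952 (− strand, intron of *Igf2*), chr2:174267093-174267113 and chr2:174267553-174267575 (both − strand, no other annotated gene).
miR-483-3p: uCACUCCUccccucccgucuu
miR-296-5p: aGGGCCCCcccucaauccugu
miR-298-5p: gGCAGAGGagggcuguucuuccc
The third set is from chromosome X, all on the − strand and outside other annotated genes. miR-322-3p (chrX:53054269-53054289) and miR-351-5p (chrX:53053315-53053338) are from 1 cluster, and miR-743b-3p (chrX:66777266-66777287), miR-741-3p (chrX:66796809-66796831) and miR-465a-3p (chrX:66839063-66839084) are from another, known for expression in the testis.
miR-322-3p: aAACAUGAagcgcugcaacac
miR-351-5p: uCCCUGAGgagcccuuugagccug
miR-743b-3p: gAAAGACAucaugcugaauaga
miR-741-3p: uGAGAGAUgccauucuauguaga
miR-465a-3p: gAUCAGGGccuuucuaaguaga
The sequences of miR-465b-3p and miR-465c-3p are the same as that of miR-465a-3p, so reads cannot be assigned among these 3 entries. The last sequence is that of miR-99b-5p (chr17:17830194-17830215, + strand, intron of *Spaca6*), from a cluster that also holds let-7e.
miR-99b-5p: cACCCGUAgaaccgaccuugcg
Of the 57 entries called different below, 53 had a mature sequence in the table used. They carried 50 distinct seeds, so the called miRNAs were not a group with 1 seed. Among these 53, entries with a common seed were miR-465a-3p, miR-465b-3p and miR-465c-3p, and also miR-200b-3p and miR-200c-3p. Called entries without a sequence in the table used, such as miR-30d-5p, could not be placed by seed.

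The *Dnmt1*-KO libraries held 797071 to 1244489 miRNA counts and the *Dnmt3a/3b*-DKO libraries 882430 to 1486438. The control libraries were deeper (1623256 to 2325698) and the *Dnmt*-null libraries shallower (272867 to 488108). No pair of replicates agreed within counting error (chi-squared per degree of freedom from 29.3 upward), so none looked like a copy of another. The epiblast markers, miR-302a-3p to miR-302d-3p and miR-367-3p, made up 13.59 to 20.04% of the counts in *Dnmt1*-KO against 19.33 to 20.32% in *Dnmt3a/3b*-DKO, and all 5 were above the filter on low counts. The trophoblast-associated *Sfmbt2* cluster (miR-297, miR-466, miR-467 and miR-669 families) took 1.019 to 1.145% and 0.8507 to 1.994%. Marker miRNAs of endoderm (0.3667 to 0.466% and 0.4583 to 0.5719%), of blood and endothelium (0.04854 to 0.09096% and 0.06707 to 0.09791%), of mesenchyme (0.02479 to 0.08184% and 0.05088 to 0.09613%) and of neural cells (0.01745 to 0.03608% and 0.02691 to 0.05033%) were scarce in both. None of the tested markers of epiblast (5), endoderm (4), blood and endothelium (5), mesenchyme (8) and neural cells (7) was called. Of 42 tested in the *Sfmbt2* cluster, 1 was called lower in *Dnmt1*-KO. In such bulk samples fewer cells of a type and less RNA per cell cannot be told apart.

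Levels are given as normalized CPM, counts scaled to a common library total after scaling of each library by TMM, which sets the bulk of miRNAs to a common level. Differences are log2 fold changes of *Dnmt1*-KO over *Dnmt3a/3b*-DKO. A miRNA is called when the log2 fold change is above 0.5 in size and the Benjamini-Hochberg adjusted p of edgeR's quasi-likelihood test is under 0.05. Of 1504 mature miRNAs in the table, 652 passed the filter on low counts, and 57 (8.74%) were called. Of these, 22 (3.37%) were higher and 35 (5.37%) were lower in *Dnmt1*-KO than in *Dnmt3a/3b*-DKO. Entries with identical counts in every library, such as miRNAs read from both strands of 1 locus, are counted each time they are listed. A new fit with such entries kept once, over 617 entries, called 32 higher and 16 lower. In the fit of all 652, the calls held 21 distinct count profiles on the higher side and 32 on the lower side. At an unadjusted p under 0.05, with the same fold threshold, the numbers were 106 (16.3%), 31 higher (4.75%) and 75 lower (11.5%). The values of the 4 *Dnmt1*-KO libraries did not overlap those of the 4 *Dnmt3a/3b*-DKO libraries for 50 of the 57 called miRNAs, and for 107 of all 652 tested (16.4%). The 12 miRNAs named below for the largest change in each direction were picked among those without overlap. For them the lack of overlap is part of the choice and not a further result.

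**Figure D1:**
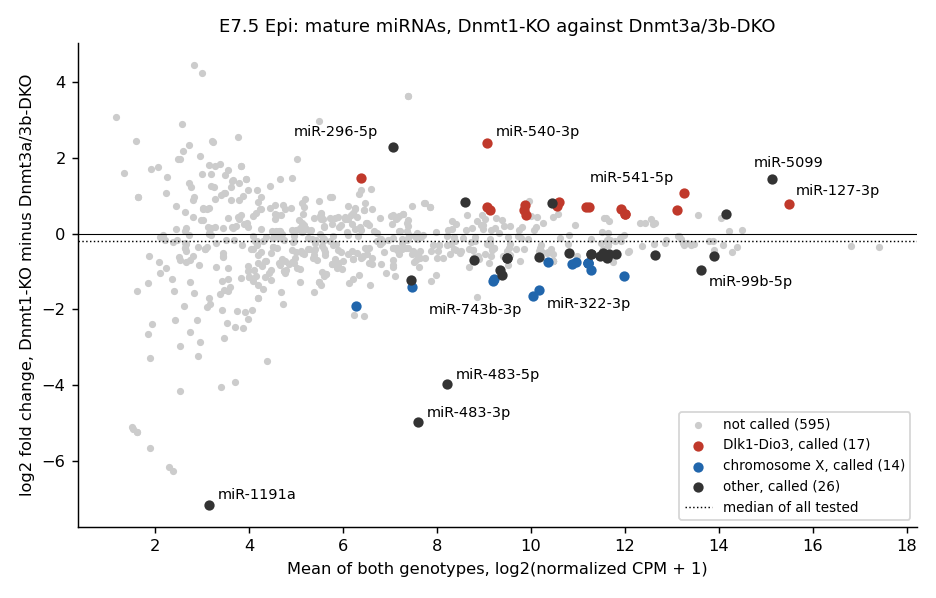
The x axis is the mean level of both genotypes on a log2 scale, log2(normalized CPM + 1), and the y axis is the log2 fold change of *Dnmt1*-KO over *Dnmt3a/3b*-DKO for the 652 tested miRNAs. Called *Dlk1-Dio3* miRNAs (17, red) lie above 0, called chromosome X miRNAs (14, blue) lie below 0, and the dotted line is the median of all tested (−0.209).

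The zero line of this comparison is set by the scaling. With TMM the median log2 fold change over all 652 miRNAs was −0.209, with RLE size factors it was −0.0826, and with TMM computed without the *Dlk1-Dio3* miRNAs it was 0.0602. The split of the calls moved with it, from 22 higher and 35 lower to 33 and 18, and to 44 and 12. Small differences therefore have to be read against this shift. No called miRNA changed its sign under any scaling, filter or tool tried. A call needs a log2 fold change above 0.5 in size, and the scalings moved the median by less than that. Scaling alone was therefore unlikely to change a sign. A core of 11 higher and 9 lower miRNAs was called in all 7 other fits (RLE, TMM without the *Dlk1-Dio3* miRNAs, DESeq2, no filter, a filter on the mean count, only the 8 libraries, and the replicate number as a block) and also with each of the 8 libraries left out. The higher ones were miR-127-3p, miR-296-3p, miR-296-5p, miR-341-3p, miR-381-3p, miR-411-5p, miR-434-5p, miR-5099, miR-540-3p, miR-541-5p and miR-673-5p. The lower ones were miR-224-5p, miR-322-3p, miR-351-3p, miR-465c-5p, miR-483-3p, miR-504-5p, miR-743b-3p, miR-93-5p and miR-99b-5p.

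The miRNAs of the *Dlk1-Dio3* region were the main group on the higher side. Of 113 in the table, 99 were tested, and 17 were called higher in *Dnmt1*-KO and 0 lower, against 3.37% of all tested miRNAs called higher. The 17 calls held 16 distinct count profiles. At an unadjusted p under 0.05, 22 were higher and 0 lower. With DESeq2 the number called was 33, with RLE 25, and with TMM computed without these miRNAs 35. A new fit with identical entries kept once called 24 of 95. The median log2 fold change of the 99 was 0.4317, against −0.3131 for all other tested miRNAs, and 86 of the 99 had a value above 0. Without *Dnmt3a/3b*-DKO replicate 2 or 3 the number called was 11, and without replicate 1 it was 24.

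Their joint weight in a library needs no scaling between libraries. The *Dlk1-Dio3* miRNAs took 23.652, 23.164, 24.672 and 21.939% of the miRNA counts in the *Dnmt1*-KO libraries. In the *Dnmt3a/3b*-DKO libraries they took 15.457, 15.039, 14.726 and 16.158%. Every *Dnmt1*-KO library was thus above every *Dnmt3a/3b*-DKO library, by 8.01 percentage points between the means (23.4 ± 1.13 against 15.3 ± 0.619, SD, n = 4 each). The share was 12.981 to 13.839% in the control libraries, below all *Dnmt3a/3b*-DKO libraries, and 20.827 to 24.828% in the *Dnmt*-null libraries, on both sides of the *Dnmt1*-KO range. These shares were compared without a test.

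**Figure D2:**
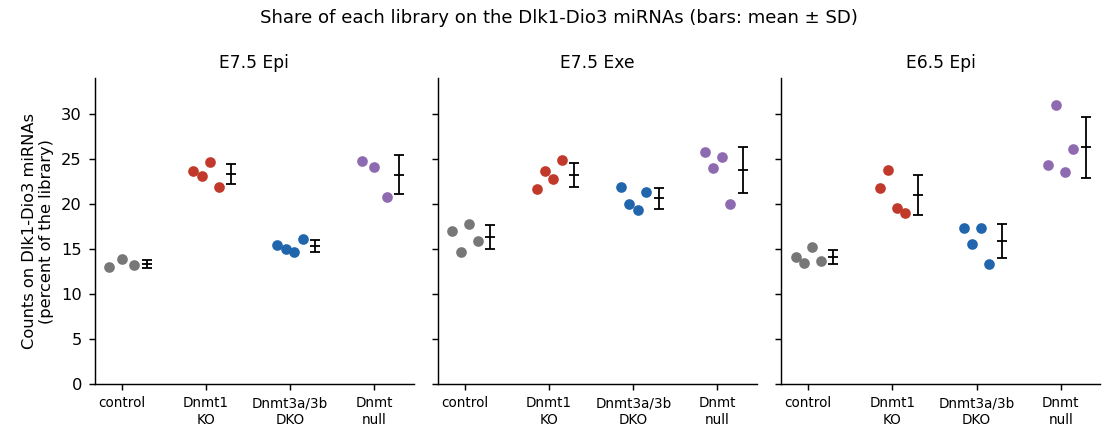
Each point is a library, and the y axis is the percent of its miRNA counts on the *Dlk1-Dio3* miRNAs, by genotype, with the mean and SD beside the points. In E7.5 Epi the *Dnmt1*-KO libraries (21.939 to 24.672%) and the *Dnmt3a/3b*-DKO libraries (14.726 to 16.158%) are apart, while in E7.5 extraembryonic ectoderm (Exe) and E6.5 Epi the ranges come closer.

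The largest difference among the called miRNAs of the region was that of miR-540-3p. Its normalized CPM was 1043, 862, 959 and 722 in *Dnmt1*-KO against 226, 138, 155 and 170 in *Dnmt3a/3b*-DKO. The groups were well apart, with a log2 fold change of 2.38 ± 0.23 (SE), or 5.20-fold (edgeR adjusted p = 1.2e-06). Unlike the region as a whole, control libraries (579, 583 and 838) were nearer to *Dnmt1*-KO, and *Dnmt*-null libraries (323, 221 and 265) were on average between both mutants. The other arm of the hairpin, miR-540-5p, was scarce (0 to 44.5 normalized CPM over the 8 libraries) and had a log2 fold change of −0.12 ± 1.01 (edgeR adjusted p = 0.964). For miR-540-3p it was thus *Dnmt3a/3b*-DKO that stood farther from control, a contrast that was not tested here.

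miR-541-5p was at 13222, 12843, 14451 and 12669 normalized CPM in *Dnmt1*-KO, against 7015, 6095, 5953 and 6294 in *Dnmt3a/3b*-DKO. The log2 fold change was 1.07 ± 0.10 (edgeR adjusted p = 1.2e-06), a 2.10-fold difference with a narrow spread in both groups. Control libraries (9636, 10092 and 11463) and *Dnmt*-null libraries (11435, 9025 and 9841) lay between both groups. Its other arm, miR-541-3p, had a log2 fold change of 0.73 ± 0.30 and was not called (edgeR adjusted p = 0.146).

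The anti-*Rtl1* miRNAs are processed from a maternal transcript opposite *Rtl1* and can cleave the mRNA of that paternally expressed gene. Of 12 entries tested in this stretch, 6 were called higher, with a median log2 fold change of 0.5598. With the replicate number as a block 3 were called, and with DESeq2 8. The 12 include both arms of miR-3071, which lies on the strand of *Rtl1* itself and has the same counts as miR-136, so 1 of the 6 calls is a copy of another. miR-127-3p was at 70134, 56471, 62674 and 44160 normalized CPM in *Dnmt1*-KO, against 36132, 33009, 32565 and 34309 in *Dnmt3a/3b*-DKO. No value overlapped, and the log2 fold change was 0.78 ± 0.12, or 1.72-fold (edgeR adjusted p = 0.000392). Here control libraries (31492 to 34267) were level with *Dnmt3a/3b*-DKO, and *Dnmt*-null libraries (43577 to 56677) were within or just under the *Dnmt1*-KO range. miR-127-5p was at 109, 108, 132 and 138 against 34.9, 53.7, 54.5 and 33.6 normalized CPM, a log2 fold change of 1.46 ± 0.38 (edgeR adjusted p = 0.0206). That call was lost without *Dnmt3a/3b*-DKO replicate 4 (edgeR adjusted p = 0.0598). miR-127 was the 1 hairpin of the region with both arms called. miR-434-5p, opposite *Rtl1* too, ranged from 8605 to 12386 in *Dnmt1*-KO and from 6646 to 7401 in *Dnmt3a/3b*-DKO (log2 fold change 0.61 ± 0.11, edgeR adjusted p = 0.00104). miR-434-3p missed the fold threshold, with 0.49 ± 0.09. The other calls were miR-431-5p (0.61) and miR-136-3p (0.51). miR-136-3p has identical counts to miR-3071-5p, whose sequence pairs with it over 19 bases, so these reads cannot be told apart by strand.

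Around *Meg3*, 4 of 15 tested miRNAs were called, with a median of 0.5032. Besides miR-540-3p they were miR-673-5p, miR-665-3p and miR-770-5p, with log2 fold changes of 0.70, 0.69 and 0.69. miR-673-5p ranged from 2723 to 3039 normalized CPM in *Dnmt1*-KO and from 1663 to 2004 in *Dnmt3a/3b*-DKO (edgeR adjusted p = 0.000881). In *Rian*, 1 of 6 was called, miR-341-3p (0.75 ± 0.17, edgeR adjusted p = 0.00842), at 1028 to 1248 against 541.8 to 886. miR-370-3p passed the adjusted p (0.00552, edgeR) but not the fold threshold, with 0.41 ± 0.09.

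The long miR-379/410 cluster toward *Dio3* had 6 of 64 tested called, with a median of 0.3933. Besides miR-541-5p they were miR-381-3p, miR-411-5p, miR-758-3p, miR-379-3p and miR-380-3p. miR-381-3p was at 2127, 2100, 1973 and 1697 normalized CPM in *Dnmt1*-KO, against 967, 1207, 1044 and 1212 in *Dnmt3a/3b*-DKO (log2 fold change 0.83 ± 0.14, edgeR adjusted p = 0.000881). miR-411-5p was at 1718, 1848, 2010 and 1966 against 1068, 1114, 1008 and 1344 (0.73 ± 0.14, edgeR adjusted p = 0.00158). These groups too were apart. Calls of the region lost when some single library was left out were, besides miR-127-5p, those of miR-665-3p (*Dnmt1*-KO replicate 2), miR-758-3p (*Dnmt1*-KO replicate 1), miR-379-3p (*Dnmt1*-KO replicate 2, *Dnmt3a/3b*-DKO replicates 2 and 3), and miR-770-5p, miR-431-5p, miR-380-3p and miR-136-3p (with miR-3071-5p), each in 5 or 6 of the 8 fits. Of the 64 tested in the cluster, 58 had a value above 0, but some of them differed little. miR-409-3p was at 24284, 24611, 24468 and 21784 in *Dnmt1*-KO, against 22911, 22502, 20835 and 23054 in *Dnmt3a/3b*-DKO, overlapping ranges with a log2 fold change of 0.09 ± 0.08 (edgeR adjusted p = 0.568). Its other arm had 0.24 ± 0.10, and miR-369-3p and miR-369-5p had 0.38 ± 0.31 and 0.20 ± 0.16, none of them called. The pair of miRNAs near *Dio3*, miR-1247-3p and miR-1247-5p, were near the limit of detection and not called. Both arms of a hairpin mostly went together. Of 44 *Dlk1-Dio3* hairpins with both arms tested, 37 had the same sign in both, beside 150 of 201 over all hairpins.

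**Figure D3:**
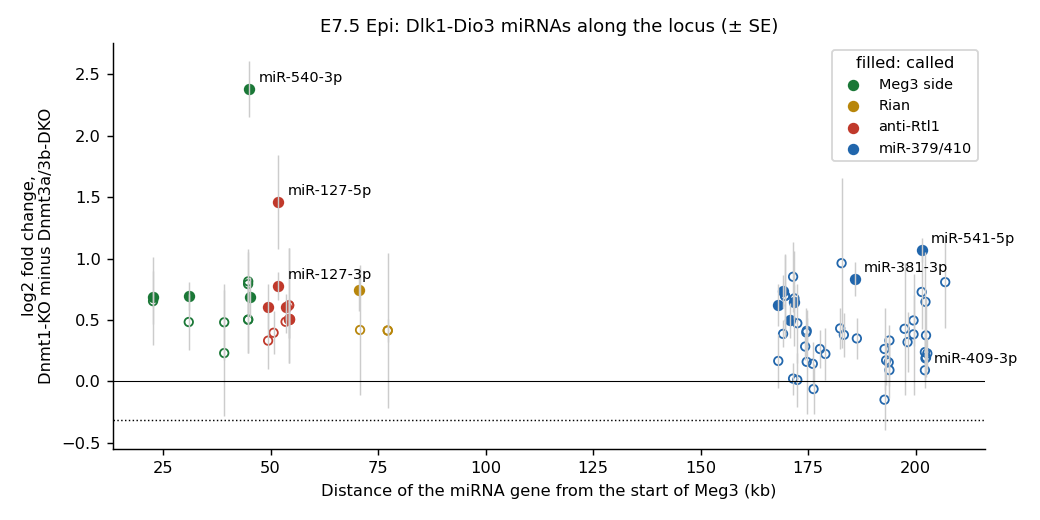
The x axis is the distance of each miRNA gene from the start of *Meg3* in kb, and the y axis is the log2 fold change of *Dnmt1*-KO over *Dnmt3a/3b*-DKO, with SE, for the 73 *Dlk1-Dio3* miRNAs of at least 50 normalized CPM on average. Filled points are called (17), and the dotted line is the median of all miRNAs outside the region (−0.3131). Values lie between −0.15 (miR-382-5p) and 2.38 (miR-540-3p).

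miR-483, in an intron of the imprinted growth factor gene *Igf2*, went the other way. miR-483-3p had 0, 4, 30 and 22 counts in the *Dnmt1*-KO libraries and at least 155 in each *Dnmt3a/3b*-DKO library. That is 0, 4.88, 23.6 and 16.5 normalized CPM against 187, 407, 440 and 457. The log2 fold change was −4.97 ± 0.66, or 31.4-fold (edgeR adjusted p = 0.000613). It was −4.57 without *Dnmt1*-KO replicate 1 and −5.58 without *Dnmt1*-KO replicate 3, so the fold depends on single libraries. Control libraries held more than both (944, 939 and 900 normalized CPM), and the *Dnmt*-null libraries had a count of 0 in all 3. miR-483-5p had 106, 0, 25 and 18 counts against 458, 527, 923 and 874, with 0 again in every *Dnmt*-null library (log2 fold change −3.97 ± 0.93, edgeR adjusted p = 0.0253). Its call was lost with only the 8 libraries in the fit (edgeR adjusted p = 0.0640), with DESeq2 and with the replicate number as a block. It was also lost without any of *Dnmt1*-KO replicates 3 and 4 or *Dnmt3a/3b*-DKO replicates 1, 2 and 3 (edgeR adjusted p = 0.0521 to 0.0646). Without *Dnmt1*-KO replicate 1, the library with 106 counts, the log2 fold change was −5.55 (edgeR adjusted p = 0.000145). The order of means, control over *Dnmt3a/3b*-DKO over *Dnmt1*-KO over *Dnmt*-null, was the same for both arms. miR-675, in the neighbouring *H19*, had too few counts to compare. miR-675-3p had 6.30 to 10.97 normalized CPM in *Dnmt1*-KO against 1.204 to 10.1 in *Dnmt3a/3b*-DKO (log2 fold change 0.18 ± 1.48).

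In the *Gnas* region, miR-296-5p, miR-296-3p and miR-298-5p were higher in *Dnmt1*-KO. miR-296-5p was at 260, 268, 157 and 202 normalized CPM, against 24.1, 24.3, 55.9 and 75.5 in *Dnmt3a/3b*-DKO. The log2 fold change was 2.29 ± 0.42, or 4.88-fold (edgeR adjusted p = 0.00158). Control libraries (184, 194 and 295) were level with *Dnmt1*-KO, so that the *Dnmt3a/3b*-DKO libraries were the low ones. miR-296-3p ranged from 1558 to 2247 against 882.5 to 1203 (0.80 ± 0.19, edgeR adjusted p = 0.0102). miR-298-5p was at 23435, 21626, 21561 and 18429 against 15268, 14420, 15220 and 14887, a small but narrow difference of 0.51 ± 0.08 (edgeR adjusted p = 0.000757). It fell under the fold threshold without *Dnmt1*-KO replicate 1 (0.47) or *Dnmt3a/3b*-DKO replicate 2 (0.49). Control (19294 to 20730) was again nearer to *Dnmt1*-KO, and *Dnmt*-null (17225 to 17814) lay between. miR-298-3p (0.18) and both arms of miR-335, from the imprinted gene *Mest* (0.29 and 0.27), were not called. Of the 6 *Gnas* and *Mest* miRNAs tested, 3 were higher, with a median log2 fold change of 0.3981.

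**Figure D4:**
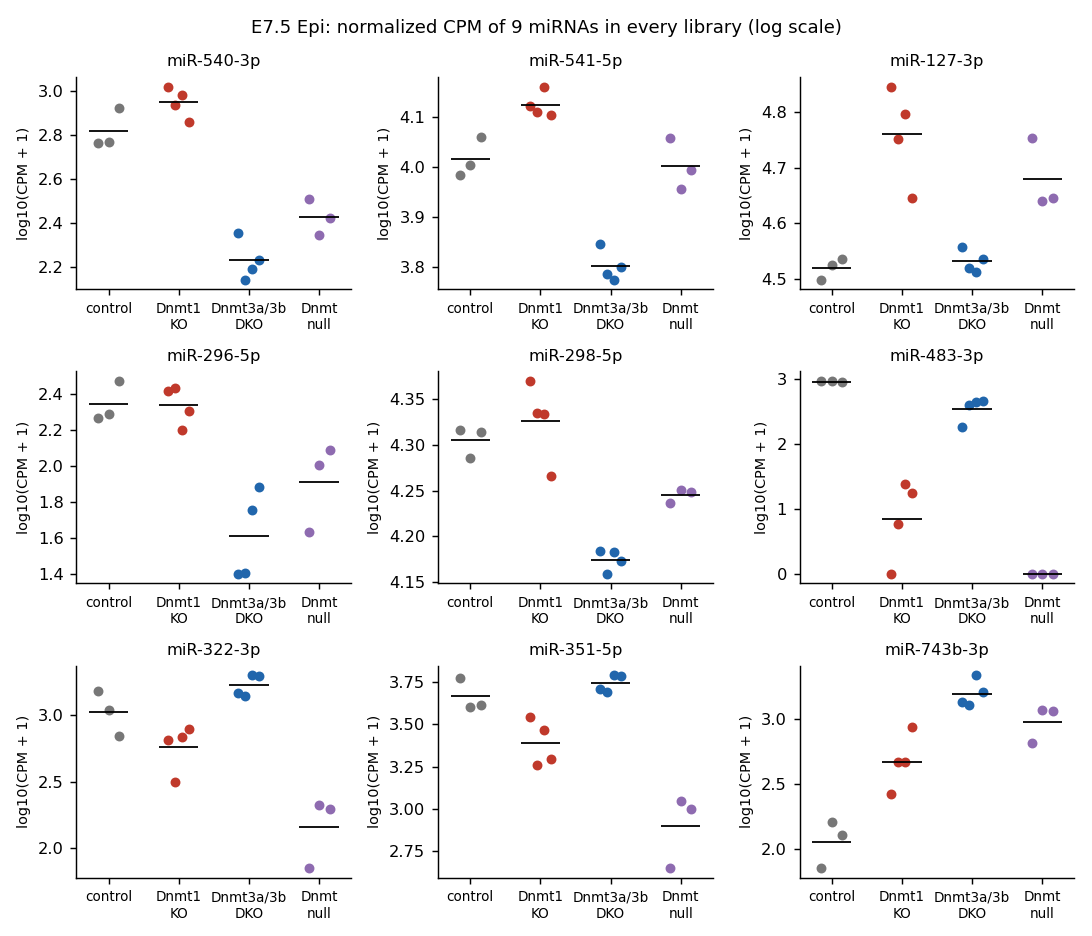
Each panel shows the level of 1 miRNA in every E7.5 Epi library on a log10 scale, log10(normalized CPM + 1), by genotype, with the mean of the log values as a line. miR-540-3p, miR-541-5p, miR-296-5p and miR-298-5p are lowest on average in *Dnmt3a/3b*-DKO, miR-127-3p is higher in every *Dnmt1*-KO and *Dnmt*-null library than in the other groups, and miR-483-3p is at a count of 0 in all 3 *Dnmt*-null libraries.

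Chromosome X held many of the lower calls, a pattern singled out after the values were seen. Of 83 tested miRNAs of chromosome X, 14 were called lower and 0 higher in *Dnmt1*-KO, beside 5.37% of all tested called lower. Their median log2 fold change was −0.5853, against −0.1672 for the other tested miRNAs. With RLE the calls were 10 lower and 1 higher, with TMM computed without the *Dlk1-Dio3* miRNAs 7 and 1, and the median stayed below that of the other miRNAs (−0.456 against −0.04147, and −0.3214 against 0.09634). The sex of the embryos in each library was not taken into account. Of the 14, 6 belong to the testis-expressed cluster and 3 to the miR-322 cluster.

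The cluster of miR-322, miR-503, miR-351, miR-450 and miR-542 is known for roles in cell cycle control. Of its 11 tested members 3 were lower, with a median of −0.6684. miR-322-3p was at 653, 315, 686 and 786 normalized CPM in *Dnmt1*-KO, against 1461, 1388, 1997 and 1969 in *Dnmt3a/3b*-DKO. The groups did not overlap, and the log2 fold change was −1.48 ± 0.32, or 2.79-fold lower in *Dnmt1*-KO (edgeR adjusted p = 0.00661). miR-351-5p was at 3507, 1819, 2913 and 1968 against 5117, 4866, 6147 and 6052 (−1.12 ± 0.26, edgeR adjusted p = 0.0105), a call lost without *Dnmt3a/3b*-DKO replicate 1 (−1.004, edgeR adjusted p = 0.0506). miR-351-3p had −1.24 ± 0.26 (edgeR adjusted p = 0.00404). miR-322-5p, the other arm of miR-322-3p, had −0.337 and was not called. For miR-322-3p and miR-351-5p the *Dnmt*-null libraries were lower still, at 69.4 to 210 and 448 to 1118, and control libraries (700 to 1518 and 4008 to 5956) reached into the range of *Dnmt3a/3b*-DKO. The cluster did not move as a whole. miR-450a-5p had a log2 fold change of 0.45 ± 0.15 (edgeR adjusted p = 0.0733), on the other side of 0, and with RLE or with TMM without the *Dlk1-Dio3* miRNAs 1 member of the cluster was called higher.

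The cluster of chromosome X known from male germ cells (miR-463, miR-465, miR-470, miR-471, miR-741, miR-743, miR-871, miR-878, miR-880, miR-881 and miR-883) had 27 tested members, 6 called lower and a median of −0.7751. With RLE 3 were called and with TMM computed without the *Dlk1-Dio3* miRNAs 2. miR-743b-3p was at 263, 466.9, 464 and 864 normalized CPM in *Dnmt1*-KO, against 1346, 1282, 2172 and 1627 in *Dnmt3a/3b*-DKO. The log2 fold change was −1.64 ± 0.33, or 3.12-fold (edgeR adjusted p = 0.00402). Control libraries were at 70.7, 160 and 128, below every mutant library. miR-741-3p was at 1411, 1615, 1571 and 2130 against 3101, 2686, 4088 and 3258 (−0.97 ± 0.25, edgeR adjusted p = 0.0206), with control at 155 to 425. Its call was lost without any of *Dnmt1*-KO replicates 1, 2 and 3 or *Dnmt3a/3b*-DKO replicates 1 and 3 (edgeR adjusted p = 0.0579 to 0.0772). The other arm, miR-741-5p, had 0.06 and was not called. miR-465a-3p, with the same sequence in 3 entries, was at 1585 to 1988 against 2458 to 3591 and in control at 185 to 444. It had −0.77 ± 0.21 (edgeR adjusted p = 0.0234), and its call was lost with RLE (−0.64) and without any of 5 libraries (*Dnmt1*-KO replicates 2, 3 and 4, *Dnmt3a/3b*-DKO replicates 1 and 3). miR-465c-5p, at 262 to 475 against 716 to 1007, had −1.19 ± 0.28 (edgeR adjusted p = 0.00842). Every mutant library was thus above every control library for miR-743b-3p, miR-741-3p, miR-465a-3p and miR-465c-5p, a contrast given no test here, and the *Dnmt3a/3b*-DKO libraries were the higher ones.

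The other X-linked calls, all lower in *Dnmt1*-KO, lie in introns of protein-coding genes on the same strand. miR-504-5p, in *Fgf13*, was at 45.1, 74.4, 130 and 137 normalized CPM against 295, 218, 264 and 249, with control at 220 to 268 (−1.40 ± 0.32, edgeR adjusted p = 0.00780). Its other arm, miR-504-3p, was on the other side of 0 (1.594) and was not called. miR-224-5p, in *Gabre*, ranged from 1089 to 1659 against 2050 to 2711 (−0.81 ± 0.15, edgeR adjusted p = 0.00158). miR-504-5p and miR-224-5p were clear of overlap. miR-362-5p and miR-501-3p, both in *Clcn5*, had −0.74 each, and lost their calls when TMM was computed without the *Dlk1-Dio3* miRNAs (−0.47 and −0.48). miR-501-3p also lost it without *Dnmt3a/3b*-DKO replicate 1 (edgeR adjusted p = 0.0532). miR-672-5p, in *Nexmif*, was at 18.0 to 65.3 against 70.7 to 185 (−1.90 ± 0.57, edgeR adjusted p = 0.0376) and lost its call with RLE and in 6 of 8 fits with a library left out.

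Outside the imprinted regions and chromosome X, miR-99b-5p had the smallest adjusted p on the lower side. Its cluster on chromosome 17 also gives let-7e and miR-125a. It was at 9201, 9841, 7852 and 7488 normalized CPM in *Dnmt1*-KO, against 18251, 20055, 15348 and 13038 in *Dnmt3a/3b*-DKO (log2 fold change −0.96 ± 0.12, edgeR adjusted p = 8.6e-05). The *Dnmt1*-KO libraries were level with control (9330 to 11111), while *Dnmt*-null libraries (23246 to 25915) were above all others. let-7e-5p was lower too, at 90.0 to 130 against 165 to 360 (−1.23 ± 0.34, edgeR adjusted p = 0.0253), though not with TMM computed without the *Dlk1-Dio3* miRNAs. Its call was also lost without *Dnmt3a/3b*-DKO replicate 2 (−0.99, edgeR adjusted p = 0.112), as without 4 other libraries. The third of the cluster, miR-125a-5p, had −0.29 ± 0.34 and was not called. Neither was the other arm of miR-99b, miR-99b-3p, with −0.2993. miR-93-5p, with the seed shared by the miR-17 family, was at 266, 369, 431 and 639 against 1070, 887, 752 and 931 (−1.09 ± 0.24, edgeR adjusted p = 0.00531). The other members of its cluster, miR-106b~25, were not called (1 of 6), nor was any of 12 tested in miR-17~92.

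miR-5099, listed on chromosome 12 at chr12:36816205-36816278, outside the *Dlk1-Dio3* region, was at 79620, 47774, 47341 and 35211 normalized CPM in *Dnmt1*-KO, against 26090, 18139, 16008 and 17616 in *Dnmt3a/3b*-DKO. The log2 fold change was 1.43 ± 0.27 (edgeR adjusted p = 0.00531), with control at 41983 to 53498, in the range of *Dnmt1*-KO. miR-130a-3p was also higher, at 440 to 614 against 219 to 398 (0.84 ± 0.22, edgeR adjusted p = 0.0231). It lost its call without any of *Dnmt1*-KO replicate 3 or *Dnmt3a/3b*-DKO replicates 2 and 3 (edgeR adjusted p = 0.0675 to 0.0802). miR-1191a had a count of 0 in all *Dnmt1*-KO libraries and 21, 6, 12 and 35 counts in *Dnmt3a/3b*-DKO. Against a floor of 3 counts per library it was at least 5.51-fold lower, a call lost without any 1 of 6 libraries.

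Families that mark pluripotent and early embryonic cells came next. None of 10 tested miRNAs of the cluster of miR-302 and miR-367 was called, with a median log2 fold change of −0.1872, close to the median of all (with TMM computed without the *Dlk1-Dio3* miRNAs it was 0.07931, on the other side of 0). miR-302b-3p was at 128140, 166410, 140350 and 176590 normalized CPM in *Dnmt1*-KO, against 195700, 196740, 195010 and 195760 in *Dnmt3a/3b*-DKO (−0.36 ± 0.13, edgeR adjusted p = 0.0807). Every *Dnmt1*-KO library was below every *Dnmt3a/3b*-DKO library, but neither the fold nor the adjusted p reached its threshold. In the miR-290-295 cluster 5 of 18 entries were called lower, the pairs miR-292a-3p with miR-292b-5p (−0.65) and miR-292a-5p with miR-292b-3p (−0.54), of identical counts, and miR-295-5p (−0.52). With RLE and with TMM computed without the *Dlk1-Dio3* miRNAs, 0 of these were called. miR-295-3p had 0.06 ± 0.13.

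The same held for other small differences on the lower side. miR-30c-5p (−0.58) and miR-30d-5p (−0.57), 2 of 12 tested miR-30 miRNAs, and miR-200b-3p (−0.52) and miR-200c-3p (−0.54), 2 of 9 of the miR-200 family, which holds cells in an epithelial state, were called lower by TMM. Under both other scalings 0 of either family was called. Without *Dnmt3a/3b*-DKO replicate 1 miR-30d-5p was at −0.38, short of the fold threshold, and miR-30c-5p lost its call without that library or *Dnmt1*-KO replicate 1. In the miR-181 family 1 of 7 was lower, miR-181d-5p, a call lost in 8 of 8 fits with a library left out. In the family of miR-15, miR-16 and miR-195 it was 1 of 8, miR-16-5p, a call lost in 4 of 8. Neither was called with RLE. In let-7 it was 1 of 9, let-7e-5p. In the cluster of miR-183, miR-96 and miR-182 (6 tested), the miR-34 family (3), the families of miR-23, miR-27 and miR-24 (9) and those of miR-29, miR-148 and miR-152 (9), none was called. In the *Sfmbt2* cluster, 1 of 42 was lower, miR-669c-5p (−0.96), with a median of −0.4282. That call was lost without *Dnmt1*-KO replicate 2 or 3 (edgeR adjusted p = 0.0544 and 0.0567), and with TMM computed without the *Dlk1-Dio3* miRNAs 0 of 42 were called. The Hox cluster miRNAs (miR-10, miR-196 and miR-615) had 0 of 4 called. let-7b-5p was at 20.5, 0, 283 and 8.25 normalized CPM in *Dnmt1*-KO, against 3.35 to 15.6 in *Dnmt3a/3b*-DKO, a difference that rests on 1 library (2.96 ± 1.44, edgeR adjusted p = 0.249).

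Where the called miRNAs lie relative to the other genotypes can be described by which group mean the control and *Dnmt*-null means are nearer to on the log scale. Of the 17 *Dlk1-Dio3* miRNAs higher in *Dnmt1*-KO, the control mean was nearer to *Dnmt3a/3b*-DKO for 15, and the *Dnmt*-null mean was nearer to *Dnmt1*-KO for 13. For 11 of the 17 control was below both mutants. The 2 with control nearer to *Dnmt1*-KO were miR-540-3p and miR-541-5p. The 5 higher miRNAs of other regions (miR-296-5p, miR-296-3p, miR-298-5p, miR-5099 and miR-130a-3p) were placed differently, with control nearer to *Dnmt1*-KO for 5 of 5 and *Dnmt*-null nearer to *Dnmt3a/3b*-DKO for 4 of 5. Among the 14 lower miRNAs of chromosome X, control was nearer to *Dnmt3a/3b*-DKO for 7, and below both mutants for 7. Of 21 other lower ones, control was nearer to *Dnmt3a/3b*-DKO for 12. These counts rest on means and were given no test.

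The same genotypes were compared in Exe at E7.5 and in Epi at E6.5, with 4 libraries per group of their own. Epi and Exe of a stage may come from the same embryos, which the labels do not say. In E7.5 Exe, 5 of 597 tested miRNAs (0.838%) were called, 2 higher (0.335%) and 3 lower (0.503%). At an unadjusted p under 0.05 there were 59 (9.88%), 28 higher (4.69%) and 31 lower (5.19%), and DESeq2 called 26. The higher ones were miR-298-5p (0.88 ± 0.13, edgeR adjusted p = 0.000264) and miR-673-5p (0.83 ± 0.19, edgeR adjusted p = 0.0343). The lower ones were miR-483-5p (−2.77 ± 0.38, edgeR adjusted p = 0.000208), miR-30c-5p (−0.96 ± 0.15, edgeR adjusted p = 0.000597) and miR-101a-3p, at a count of 0 in all *Dnmt1*-KO libraries. miR-298-5p, miR-483-5p and miR-30c-5p were called in each of 8 fits with a library left out, miR-673-5p in 2 and miR-101a-3p in 0. In E6.5 Epi edgeR called 0 of 409, while DESeq2 called 19 and 40 were at an unadjusted p under 0.05 (9.78%), 18 higher (4.40%) and 22 lower (5.38%). These libraries were shallower than those of E7.5 Epi, with 152860 to 600821 counts in *Dnmt1*-KO and 154977 to 212088 in *Dnmt3a/3b*-DKO. The numbers called at both stages are thus not directly comparable.

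Among the *Dlk1-Dio3* miRNAs, 1 of 95 tested was called in E7.5 Exe, with a median log2 fold change of 0.05867, beside −0.04436 over all miRNAs. In E6.5 Epi 0 of 80 was called, with a median of 0.477, beside 0.02366 over all. The share of the region in E7.5 Exe was 23.2 ± 1.37% in *Dnmt1*-KO against 20.7 ± 1.18% in *Dnmt3a/3b*-DKO (SD, n = 4), ranges that overlapped. In E6.5 Epi it was 21.03 ± 2.21% and 15.9 ± 1.88%, which did not overlap (18.961 to 23.792% and 13.33 to 17.311%). As a background for signs, 597 miRNAs were tested in E7.5 Exe, and 279 of them had a log2 fold change above 0. At E6.5, Epi had 409 tested and 210 above 0. Entries with identical counts are counted each time here and in the sign counts that follow. The 22 miRNAs higher in E7.5 Epi had the same sign in E7.5 Exe for 18 and in E6.5 Epi for 21. Of the 35 lower ones the same sign was seen for 28 of 35 in E7.5 Exe and for 25 of 34 tested in E6.5 Epi. Chromosome X had 0 called in both, with medians of −0.1149 and −0.2075.

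Only a test of the difference itself shows where the contrast differs between tissues or stages. Between Epi and Exe at E7.5, 2 of 728 tested miRNAs (0.275%) differed in the contrast, both of the *Dlk1-Dio3* region, and 90 (12.4%) at an unadjusted p under 0.05. This joint fit of both tissues has its own scaling, so its values are not the plain difference of the contrasts above. The median of the difference over all tested miRNAs was 0.112 in it, and −0.209 when TMM was computed within each tissue. For miR-540-3p the log2 difference was 2.39 ± 0.44 (edgeR adjusted p = 0.00234), and 2.05 ± 0.45 with scaling within tissues (edgeR adjusted p = 0.0474). In Exe it was at 355, 192, 274 and 359 normalized CPM in *Dnmt1*-KO, against 359, 145, 164 and 280 in *Dnmt3a/3b*-DKO, overlapping groups (0.32 ± 0.36). For miR-541-5p it was 1.26 ± 0.22 (edgeR adjusted p = 0.00234), and 0.93 ± 0.23 with scaling within tissues (edgeR adjusted p = 0.0498). In Exe the levels of 6969 to 10336 and 6622 to 9005 overlapped (0.13 ± 0.19). The miR-541-5p call was lost in 1 of 16 fits with a library left out, that without E7.5 Epi *Dnmt1*-KO replicate 2. miR-127-3p, with 0.51 ± 0.13 in Exe, did not pass the test of the difference (0.58 ± 0.18 in the joint fit, edgeR adjusted p = 0.119, and 0.26 ± 0.18 with scaling within tissues, edgeR adjusted p = 0.574), and neither did miR-483-3p (−3.09 ± 0.94, edgeR adjusted p = 0.119).

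Between E7.5 and E6.5 in Epi, 2 of 572 (0.350%) differed, and 30 (5.24%) at an unadjusted p under 0.05. miR-5099 had the opposite sign at E6.5, with a log2 fold change of −1.11 ± 0.27 that was not called there (edgeR adjusted p = 0.156). It was at 31900, 31293, 28078 and 15521 in *Dnmt1*-KO, against 54854, 49515, 61957 and 64342 in *Dnmt3a/3b*-DKO. The difference of the contrasts in the joint fit was 2.67 ± 0.42 (edgeR adjusted p = 0.000505), and 2.65 with scaling within stages. For miR-540-3p it was 2.12 ± 0.49 (edgeR adjusted p = 0.0383), a call lost in 10 of 16 fits with a library left out. At E6.5 miR-540-3p was at 300, 328, 296 and 370 in *Dnmt1*-KO, against 476, 156, 183 and 170 in *Dnmt3a/3b*-DKO (0.39 ± 0.43), with 1 *Dnmt3a/3b*-DKO library above all others. Stage and any difference in handling between the stages cannot be told apart.

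**Figure D5:**
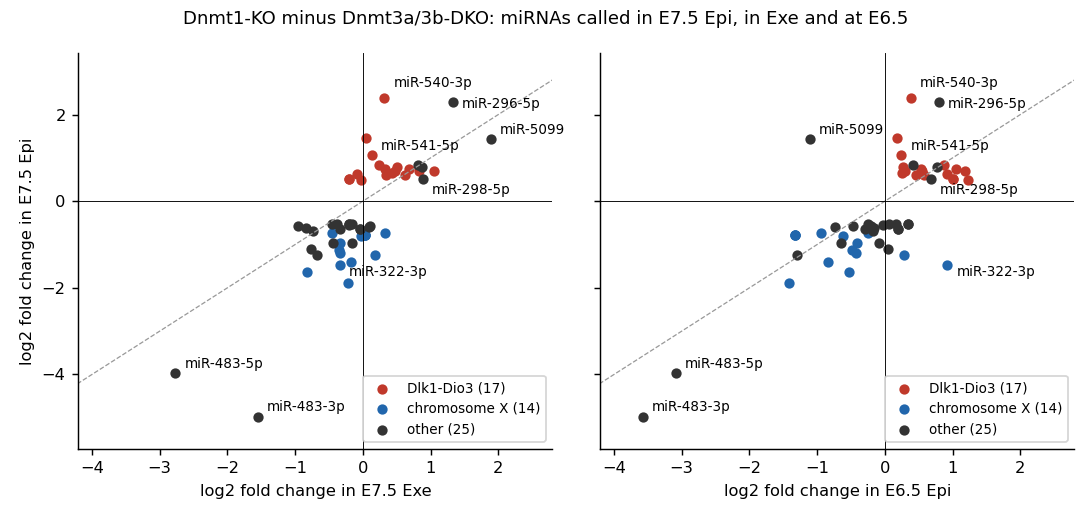
Each point is a miRNA called in E7.5 Epi, with its log2 fold change there on the y axis and in E7.5 Exe (left) or E6.5 Epi (right) on the x axis, and equality as a dashed line (miR-1191a is left out). miR-540-3p lies at 2.38 in E7.5 Epi but at 0.32 and 0.39 in the others, and miR-5099 is at −1.11 at E6.5.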

How the data were processed

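Small RNA was sequenced by CAS-seq. Per the labels and the study's methods, the authors used fastp (0.20.1) for trimming and Bowtie (1.2.1.1) for alignment, first to GRCm38 and then to mature miRBase 21 sequences, and deposited raw counts per mature miRNA. Strand was not used in counting as far as the counts show, so entries of both strands of a locus can hold identical counts. No molecular identifiers are described, so amplification copies count as reads.

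From these counts, edgeR 4.0.16 was run with TMM scaling, filterByExpr (count minimum 10) and a robust quasi-likelihood fit of all 14 E7.5 Epi libraries, which share 1 estimate of the spread. The contrast was *Dnmt1*-KO minus *Dnmt3a/3b*-DKO. Adjustment was by Benjamini-Hochberg over all tested miRNAs, and SE is the log2 fold change divided by the root of F. The same fit was run in E7.5 Exe and E6.5 Epi, and differences between contrasts were tested as interaction terms. Genomic positions are from RefSeq and GENCODE (GRCm38). DESeq2 1.42.0, other scalings and filters, a replicate block and leaving out each library were tried as alternatives. The fit was tested on simulated counts.

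Named miRNAs were the 12 with the largest change in each direction among called ones of at least 50 CPM without overlap, the 10 with the highest mean, the imprinted miRNAs, and the 3 highest of each list. Any other miRNA was named with its values in view. The comparison, its members and the lists were chosen with earlier results of these data known. Labels do not tell whether replicates were separate embryos, so p-values measure the spread between these libraries, which may be technical.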

Additional observations from a re-analysis of the deposited data

Results flagged for a closer look

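In groups of 4 libraries, 1 value stood far from the other 3 (a gap above Dixon's critical value) in 11 of 150 groups checked, where chance gives about 1 in 20. In *Dnmt3a/3b*-DKO these were miR-673-5p (replicate 1, 2004 normalized CPM), miR-92a-3p (replicate 1, 139580), miR-675-3p (replicate 1, 1.204), miR-380-3p (replicate 2, 720) and miR-431-5p (replicate 4, 545). In *Dnmt1*-KO they were miR-672-5p (replicate 3, 65.3), miR-409-3p (replicate 4, 21784), let-7b-5p (replicate 3, 283), miR-540-5p (replicate 1, 0), and miR-136-3p with its partner of identical counts miR-3071-5p (replicate 1, 2931, the others 5322 to 5603). They fell on several libraries rather than on 1.

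The contrast of *Dnmt1*-KO with *Dnmt3a/3b*-DKO differed between Epi and Exe for miR-541-5p (1.26) and miR-540-3p (2.39), and between E7.5 and E6.5 for miR-5099 (2.67) and miR-540-3p (2.12), as log2 differences by the interaction term of a joint fit. With TMM within each tissue those between Epi and Exe were 0.93 (miR-541-5p) and 2.05 (miR-540-3p).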

How the results depend on the processing

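The split of the calls moved with the scaling, and also with the filter and with the entries and libraries fitted. Beside 22 higher and 35 lower calls, of which 17 were *Dlk1-Dio3* miRNAs, RLE gave 33 and 18 (25), TMM without those miRNAs 44 and 12 (35), DESeq2 44 and 24 (33), a mean of at least 10 counts 34 and 17 (26), only the 8 libraries 31 and 23 (23), identical entries taken once 32 and 16 (24), and no filter 27 and 34 (18). Unadjusted p gave 106 (31 higher, 75 lower), and a log2 fold change above 1 gave 17 (5, 12; 3 of the region). Leaving out 1 library gave 39 (*Dnmt1*-KO replicate 2) to 56 calls, 14 (*Dnmt3a/3b*-DKO replicate 2) to 30 (replicate 1) higher, 18 (*Dnmt3a/3b*-DKO replicate 1) to 33 lower, with 22 lower without *Dnmt1*-KO replicate 2, and 11 to 24 in the region. Of the 57, 34 to 45 remained called across the tools, scalings and filters, and 46 with the replicate block. The share difference stayed at 7.57 to 8.49 points with a library left out. No called miRNA changed sign, which the fold threshold made unlikely under a change of scaling. Medians of lists near 0 did change sign under some settings. Among them, with TMM without the *Dlk1-Dio3* miRNAs, that of all miRNAs went from −0.209 to 0.0602, that of the epiblast markers from −0.2033 to 0.06468, that of miR-302 and miR-367 from −0.1872 to 0.07931 and that of let-7 from −0.2031 to 0.03837.

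In E7.5 Exe, 5 calls became 26 with DESeq2, 59 unadjusted, and 3 to 7 with a library left out. In E6.5 Epi, 0 became 19, 40, and 0 to 1. The interaction calls, 2 each, became 16 (DESeq2), 6 (TMM within each tissue, chosen after seeing the data), 90 (unadjusted) and 2 to 7 between tissues, and 3 (RLE, DESeq2 and TMM within each stage), 30 and 1 to 4 between stages. The causes were not tested.

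Same-numbered libraries did not deviate together (correlations −0.00455 to 0.0860), so their numbers do not pair them. With the replicate number as a block, E7.5 Epi had 17 higher and 29 lower calls (12 of the region), E7.5 Exe 3, E6.5 Epi 2, and the interaction between stages 1. At the depth of the *Dnmt1*-KO libraries, 3 counts are 2.41 to 3.76 CPM, so miRNAs near that level cannot be compared. Counting intervals would cover counting error only.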
